A study of Mus musculus with 6 samples.

Results

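The 10 genes described here, Acta2, Actg2, Tpm1, Tpm2, Tagln, Cnn1, Lmod1, Myh11, Myl9 and Mylk, encode proteins of the contractile apparatus of smooth muscle, and they were taken by gene symbol from the 20071 genes of the count table, which held all 10. In Prrx1-Cre;Pcif1fl/fl cells the myosin kinase gene Mylk fell to 0.399 times its Pcif1fl/fl level, Tpm1 fell to 0.755 times and Myl9 to 0.757 times. Mylk passed the test in all 13 alternative fits, whereas Tpm1 and Myl9 missed the threshold with the replicate number as a block, without Pcif1fl/fl replicate 1 and without any 1 of the Prrx1-Cre;Pcif1fl/fl libraries. Acta2, the smooth muscle actin gene most often used as a marker of such cells, had a ratio of 0.975 and did not pass the test. No member was higher at an adjusted p-value under 0.05.

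The libraries are poly(A) RNA of mesenchymal stem cells (MSCs) cultured from the femurs of 6-week-old mice and kept for 7 days in osteogenic medium with dexamethasone at 100 nM, β-glycerophosphate at 5 mM and ascorbic acid at 50 µg/mL. The 3 control libraries, labelled WT, are from Pcif1fl/fl mice, whose Pcif1 alleles carry loxP sites around exons 5 to 7. The 3 CKO libraries are from Prrx1-Cre;Pcif1fl/fl mice, which carry the same alleles and a Cre recombinase that is expressed in limb mesenchyme. Prrx1-Cre is not active in cells of the blood lineage, and the controls carry no Cre. PCIF1 is the enzyme that methylates a cap-adjacent adenosine, the modification called m6Am. The design text speaks of biological duplicates, whereas 3 libraries are labelled per genotype, and the labels do not say whether these are separate mice or cultures, so the p-values measure the spread between these libraries, which may be technical.

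Smooth muscle shortens when myosin heads pull on actin filaments, and the pull is switched on by phosphorylation of the regulatory light chain. Calcium-bound calmodulin activates the myosin light chain kinase, tropomyosins and calponin lie along the actin filament, and leiomodin starts new filaments. Many of these genes are transcribed with serum response factor (SRF) and its coactivators of the myocardin family, through a promoter element named the CArG box. Marrow stromal cells and cells grown on plastic also make part of this apparatus, as do pericytes, the mural cells that wrap small vessels.

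PCIF1 can act only where a transcript begins with adenosine, so the first bases of the members are shown. RefSeq start sites on GRCm38.p6 were at hand for 7 of the 10 members, 1 site for each gene. Each line gives 15 bases before the start, the first transcribed base in capitals, and the bases after it to a length of 30, in the direction of transcription.
Acta2 (chr19:34255359-34255388, minus strand): gggaggggatcagagCaaggggctatataa
Cnn1 (chr9:22099238-22099267, plus strand): ggcttctggagcttcAaaaacgtgtgagga
Mylk (chr16:34784935-34784964, plus strand): atcctggagagctgtAgaggggaactcgtg
Tpm1 (chr9:67049199-67049228, minus strand): agcaggcagctccgcGctcgcactccggct
Tpm2 (chr4:43523540-43523569, minus strand): tgcttctgcccctacAaggtttgggccttg
Myl9 (chr2:156775449-156775478, plus strand): tgccagccaactctcGaagcaccgcaacag
Lmod1 (chr1:135324798-135324827, plus strand): gaccaagcagggtccActagcagggaggct
The first base was A in 4 of the 7 members, Cnn1, Mylk, Tpm2 and Lmod1, and in 34.4% of all 32851 RefSeq start windows. Of the 3 genes that fell, Mylk began with A at this site, and Tpm1 and Myl9 with G. A single annotated start does not show where these cells begin the transcript. All 7 sites lie inside the annotated gene, that of Mylk by 39740 bases and the others by 6 to 217 bases from its outermost start.

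The promoter letters bear on the members as a group of SRF targets. The CArG box was searched on both strands in windows from 250 bases before to 50 bases after each start. It was found in 1 of the 7 members, Myl9, at position -161, and in 1.63% of all windows. A version with 1 of its central letters replaced by G or C was found in Acta2, at -84 and -34, and in Myl9, at -99, and in 8.5% of all windows. These 4 matches are shown with the box in capitals, on the same build.
Acta2 at -84 (chr19:34255438-34255467, minus strand): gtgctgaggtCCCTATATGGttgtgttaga
Acta2 at -34 (chr19:34255388-34255417, minus strand): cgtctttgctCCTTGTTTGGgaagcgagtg
Myl9 at -161 (chr2:156775293-156775322, plus strand): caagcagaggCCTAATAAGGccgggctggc
Myl9 at -99 (chr2:156775355-156775384, plus strand): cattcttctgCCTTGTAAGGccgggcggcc
The MCAT element, CATTCC on either strand, to which TEAD factors bind, was in the windows of Acta2, Mylk, Tpm1 and Lmod1, or 4 of 7, and in 14.7% of all windows. The matches are letters in a window and not measured binding. Of the 7 members searched, only Myl9, which fell, and Acta2, which did not pass the test, had a box of either kind. Tagln, Myh11 and Actg2 had no window to search.

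The libraries held 20258209 to 28227696 counts, and the members took 0.170% to 0.197% of them in Pcif1fl/fl cells and 0.143% to 0.148% in Prrx1-Cre;Pcif1fl/fl cells. Pcif1fl/fl replicate 3 stood apart from the other libraries: its chi-square per gene against the other control libraries was 88.5 and 105, where the remaining pairs within a genotype gave 2.89 to 10.7, and the mitochondrial share of its counts was 3.63% against 1.40% to 1.57%. Counts of genes that passed are therefore also given without it. The counts of Pcif1 per gene, 980, 1134 and 1096 in control replicates 1 to 3 and 870, 759 and 826 in the CKO libraries, do not show the deletion of 3 exons. Xist, the transcript of the inactive X chromosome, was at 232 to 443 CPM (library-scaled counts) in the control libraries and at 0.722 to 1.79 CPM in the CKO libraries. The Y-linked genes Ddx3y and Eif2s3y were counted in all 6 libraries, Ddx3y at 48.4 to 62.2 CPM in the control and 99.1 to 104 CPM in the CKO libraries, and Eif2s3y at 24.9 to 35.9 and 47.7 to 55.4 CPM. Both Xist and Y-linked transcripts were thus present in the control libraries, and the sex makeup of the cells cannot be told apart from genotype. All 10 members are autosomal. The label of mesenchymal cells was met by Prrx1 at 211 to 283 CPM and Pdgfrb at 199 to 263 CPM, but macrophage genes were also high in every library (Cd68 at 695 to 1227, Adgre1 at 393 to 625, Csf1r at 941 to 1244 and Ptprc at 171 to 245 CPM). The 13 macrophage markers summed to 28490 to 30530 CPM in Pcif1fl/fl and 28010 to 31440 CPM in Prrx1-Cre;Pcif1fl/fl libraries. Most of this sum was Lyz2, at 22770 to 25240 and 21980 to 26230 CPM. In 1 of the 13 markers every CKO library was below every control library, and in 4 every one was above, against 15.7% and 15% of all genes tested. In such mixed bulk RNA, fewer cells of a type and less RNA per cell cannot be told apart.

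Between the genotypes, 3 of the 10 members were lower at an adjusted p-value under 0.05 in the quasi-likelihood test of edgeR, adjusted by the method of Benjamini and Hochberg over all 13733 genes tested, and 0 were higher. Of all genes tested, 4.51% were lower and 2.88% higher by that rule. At an unadjusted p under 0.05, 6 members were lower and 0 higher, and the share of all genes at that threshold was not counted. Mylk also passed the log2 fold change threshold of -1, which 2.5% of all genes did. In 6 of the 10 members, Mylk, Tpm1, Myl9, Cnn1, Lmod1 and Actg2, every CKO library was below every control library, as in 15.7% of all genes tested, and in 0 members every CKO library was above (15% of all genes). All 10 members passed the filter on low counts. Their median log2 fold change was -0.40, and that of all genes was 0.0017, with quartiles of -0.20 and 0.17. Without Pcif1fl/fl replicate 3, all 6 of these members passed, and without any 1 of the CKO libraries only Mylk passed. The share of all genes moved in the same direction: without Pcif1fl/fl replicate 3, 10.4% of 13905 genes were lower and 11.1% higher, and without 1 of the CKO libraries 2.32% to 2.5% were lower. The shares without Pcif1fl/fl replicate 3 also stand beside the counts given for the other lists in that fit.

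**Figure D1:**
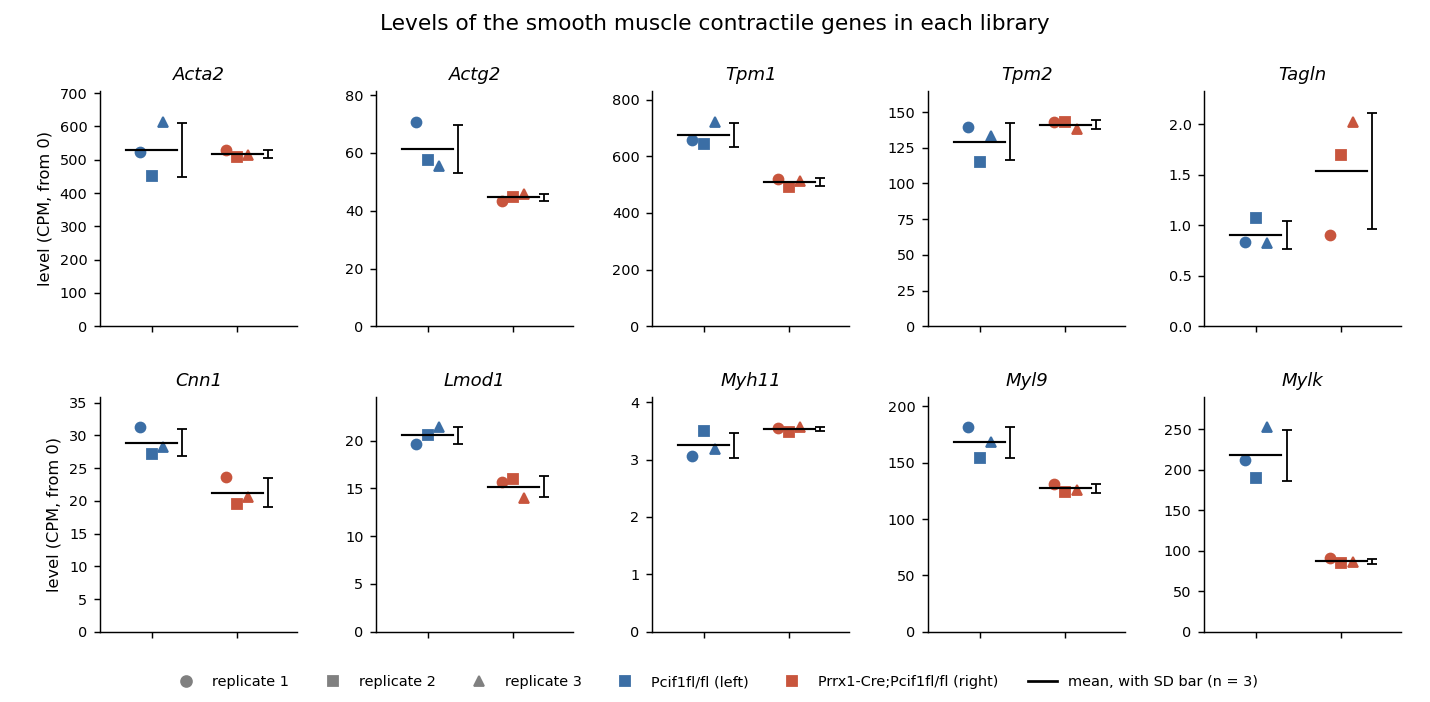
Level of each member in the 6 libraries, in CPM from 0 on the vertical axis, where CPM are library-scaled counts with edgeR's TMM factors; symbols mark replicates 1 to 3, the line is the mean and the bar the SD (n = 3). The 3 Prrx1-Cre;Pcif1fl/fl libraries of Mylk sit at 84.7 to 90.4 CPM, below the 190 to 252 CPM of the Pcif1fl/fl libraries, while those of Acta2 lie within the control range.

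The largest difference was in Mylk (ENSMUSG00000022836, chromosome 16, 34745210 to 35002420, plus strand of GRCm38), which encodes the kinase that phosphorylates the regulatory light chain. Its level was 212, 190 and 252 CPM in Pcif1fl/fl replicates 1, 2 and 3. In the Prrx1-Cre;Pcif1fl/fl replicates it was 90.4, 84.7 and 85.9 CPM. The groups did not overlap, and the lowest control library was above 2 times the level of the highest CKO library. Mylk fell from a mean of 218 ± 31.6 to 87.01 ± 3.03 CPM (SD, n = 3 each), with a log2 fold change of -1.32 (standard error, SE, 0.12) at an adjusted p of 0.000391 (edgeR). Under the 13 alternatives the log2 fold change lay between -1.41 and -1.20, and Mylk passed in all 13, with adjusted p-values from 4.43e-19 to 0.00625. On the opposite strand, E130310I04Rik and Gm21691 cover 4.87% and 1.99% of the exonic bases of Mylk, together 6.85%, and whether the counting used strand is not given in the sources used here. The gene also makes a long kinase, a short kinase and telokin, a small protein with no kinase domain, and counts per gene do not tell these transcripts apart.

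The substrate of this kinase in smooth muscle is the light chain encoded by Myl9 (ENSMUSG00000067818, chromosome 2, 156775420 to 156781658, plus strand). It was at 181, 154 and 169 CPM in the control libraries. The CKO libraries had 132, 124 and 126 CPM, and all of them lay below the lowest control library. Myl9 fell by 0.40 on the log2 scale (SE 0.092) at an adjusted p of 0.0357 (edgeR). It passed in 8 of the 13 alternatives, and its adjusted p was 0.0778 with the replicate number as a block, 0.0843 without Pcif1fl/fl replicate 1, and lay between 0.147 and 0.176 without any 1 of the CKO libraries. Its size moved little, from -0.46 to -0.34.

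Myh11 (ENSMUSG00000018830, chromosome 16, 14194535 to 14291372, minus strand), the myosin heavy chain restricted to smooth muscle and used as its strictest marker, was low but counted in every library. The counts were 70, 95 and 89 in Pcif1fl/fl libraries and 79, 70 and 74 in Prrx1-Cre;Pcif1fl/fl libraries, or 3.06, 3.49 and 3.19 against 3.56, 3.48 and 3.56 CPM. The groups overlapped, and the fold change on the log2 scale was 0.12 (SE 0.17) at an adjusted p of 0.723 (edgeR), and Myh11 passed in 0 of the 13 alternatives.

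Of the 2 smooth muscle actins, Acta2 (ENSMUSG00000035783, chromosome 19, 34241090 to 34255590, minus strand), the actin of vessel walls and of activated fibroblasts, was at 524, 452 and 614 CPM in the control libraries. The CKO libraries had 529, 507 and 513 CPM, inside the control range. The log2 fold change was -0.037 (SE 0.12) at an adjusted p of 0.888 (edgeR), and without Pcif1fl/fl replicate 3, its highest library, the value was 0.085 with an adjusted p of 0.418. Under all alternatives the log2 fold change stayed between -0.14 and 0.085. Actg2 (ENSMUSG00000059430, chromosome 6, 83512905 to 83536265, minus strand), the actin of gut and other visceral muscle, was at 70.8, 57.7 and 55.4 CPM in the control libraries and at 43.4, 44.8 and 45.8 CPM in the CKO libraries. These ranges did not overlap, yet the log2 fold change of -0.46 (SE 0.12) missed the threshold with an adjusted p of 0.0505 (edgeR). Actg2 passed in 5 of the 13 alternatives, with an adjusted p of 0.000406 without Pcif1fl/fl replicate 3 and of 0.215 without Prrx1-Cre;Pcif1fl/fl replicate 1. The coding sequences of the actins are very alike, and how reads that match several of them were counted is not given in the sources used here.

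Of the tropomyosin genes among the members, Tpm1 passed the test and Tpm2 did not. Tpm1 (ENSMUSG00000032366, chromosome 9, 67022590 to 67049406, minus strand) was at 659, 642 and 721 CPM in the control libraries and had the highest CPM of the members there. The CKO libraries had 519, 493 and 514 CPM, and none reached the lowest control library. Tpm1 fell by 0.41 on the log2 scale (SE 0.087) at an adjusted p of 0.0274 (edgeR) and passed in 7 of the 13 alternatives. With the replicate number as a block its adjusted p was 0.0798. It was 0.0511 and 0.0605 without Pcif1fl/fl replicates 1 and 2, and between 0.125 and 0.143 without any 1 of the CKO libraries. Tpm2 (ENSMUSG00000028464, chromosome 4, 43514711 to 43523765, minus strand) was at 140, 115 and 133 CPM in the control libraries and at 143, 143 and 138 CPM in the CKO libraries. The groups overlapped, and the log2 fold change was 0.13 (SE 0.098) at an adjusted p of 0.512 (edgeR). Under the 13 alternatives it lay between 0.049 and 0.19, and Tpm2 passed in 0 of them.

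Calponin 1, encoded by Cnn1 (ENSMUSG00000001349, chromosome 9, 22099216 to 22109630, plus strand), binds actin and slows the myosin cycle. It was at 31.2, 27.2 and 28.2 CPM in the control libraries and at 23.7, 19.5 and 20.5 CPM in the CKO libraries, which all lay lower. The log2 fold change was -0.44 (SE 0.12) and the adjusted p was 0.0629 (edgeR). Lmod1 (ENSMUSG00000048096, chromosome 1, 135324807 to 135368065, plus strand), the leiomodin of smooth muscle, was at 19.7, 20.6 and 21.4 CPM against 15.7, 15.9 and 13.9 CPM. These libraries did not overlap either, and the log2 fold change was -0.44 (SE 0.11) at an adjusted p of 0.0566 (edgeR). Without Pcif1fl/fl replicate 3 both genes passed, Cnn1 with an adjusted p of 0.00543 and Lmod1 with 0.0115. With DESeq2 the adjusted p-values were 0.0315 and 0.0284.

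Tagln (ENSMUSG00000032085, chromosome 9, 45929619 to 45936058, minus strand) encodes transgelin, an actin-bundling protein that is usually abundant wherever Acta2 is expressed. Here its counts were 19, 29 and 23 in the control and 20, 34 and 42 in the CKO libraries. That is 0.830, 1.07 and 0.825 CPM against 0.900, 1.69 and 2.02 CPM, and 1 CKO library lay within the control range. The log2 fold change of 0.75 (SE 0.35) at an adjusted p of 0.264 (edgeR) rests on these few reads. On the opposite strand, Gm48529 covers 62.4% of the exonic bases of Tagln and Pcsk7 covers 5.43%, together 67.9%, and the part of this overlap in the low counts was not tested. The level and the change of Tagln are therefore uncertain.

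**Figure D2:**
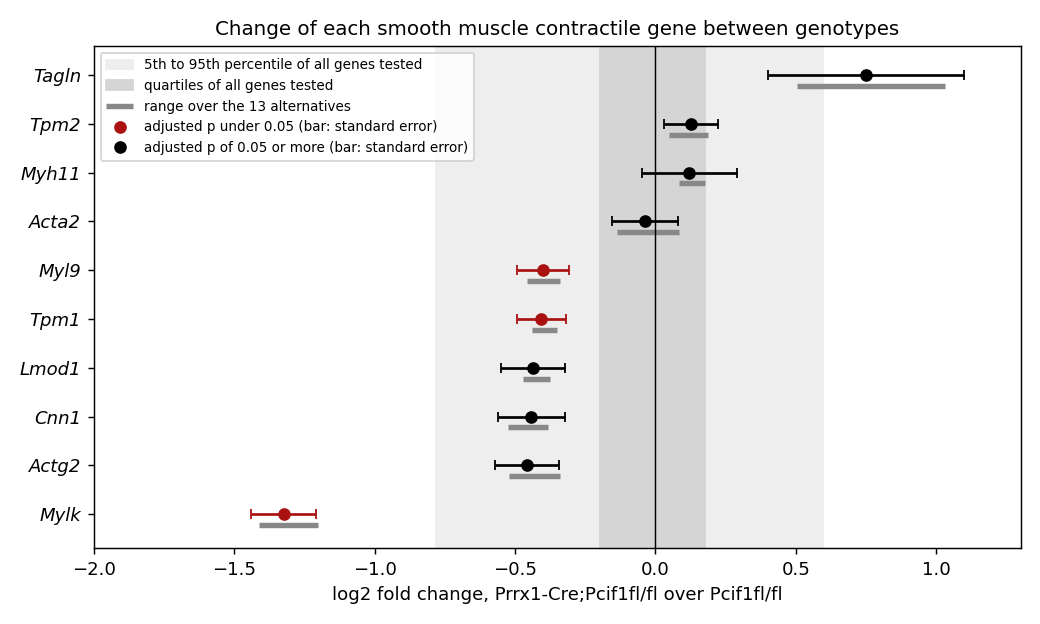
Log2 fold change of each member, Prrx1-Cre;Pcif1fl/fl over Pcif1fl/fl, on the horizontal axis, with standard errors as bars, the range over the 13 alternatives as a grey line under each point, and shaded bands for all genes tested. Mylk at -1.32 lies outside the 5th to 95th percentile of all genes (-0.78 to 0.60), and 5 further members lie together between -0.46 and -0.40.

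Scaled by exonic length (TPM, counts per exonic base scaled to a common total), the members of Pcif1fl/fl cells fell in a clear order. Acta2 led with 850.5 ± 121.8 TPM (SD, n = 3), followed by Myl9 with 509.8 ± 33.7, Tpm1 with 366.6 ± 20.8 and Tpm2 with 156.7 ± 13.2 TPM. Tpm2 and the next gene, Actg2 with 138.8 ± 17.3 TPM, overlapped in their libraries. Mylk followed with 68.2 ± 9.33, Cnn1 with 37.2 ± 2.17 and Lmod1 with 18.4 ± 0.902 TPM. Tagln with 1.61 ± 0.272 and Myh11 with 1.51 ± 0.129 TPM were last and overlapped each other. Acta2 and Myh11, often used together as smooth muscle markers, stood at opposite ends of this order. In Prrx1-Cre;Pcif1fl/fl cells the TPM were 814 for Acta2, 379 for Myl9, 271 for Tpm1, 168 for Tpm2, 99.3 for Actg2, 26.9 for Cnn1, 26.7 for Mylk and 13.3 for Lmod1. Mylk and Cnn1, apart in the control cells, had overlapping libraries in these.

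Because the ratio of 2 genes within a library does not depend on the scaling of the library, each member was also set against Acta2. The log2 ratio of Mylk to Acta2 in CPM was -1.31, -1.25 and -1.28 in the control libraries. It was -2.55, -2.58 and -2.58 in the CKO libraries, so within both groups the replicates lay closer together than in either gene alone. The difference of the means was -1.29. For Tpm1, Myl9, Lmod1, Cnn1 and Actg2 the differences were between -0.42 and -0.37, again with no overlap between genotypes. Tpm2 had a higher ratio to Acta2 in every CKO library, with a difference of 0.16. An exact permutation test of 3 libraries against 3 cannot go below a two-sided p of 0.1, so these ratios are given as values.

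The members belong to families whose other genes serve non-muscle cells, and the share of each gene in the length-scaled level of its family was compared. Tpm1 made up 26.3%, 26.5% and 26.5% of the 4 tropomyosin genes in the control libraries and 18.7%, 17.9% and 19.3% in the CKO libraries. The share of Tpm4, a tropomyosin of the non-muscle cytoskeleton, was 43.6% ± 2.87 and 51.4% ± 0.515 (SD, n = 3), and every CKO library was above every control library. Tpm4 itself rose, from 377 ± 5.09 to 477 ± 11.98 CPM (SD, n = 3), or by 0.34 on the log2 scale (SE 0.079) at an adjusted p of 0.0379 (edgeR), though it did not pass with no filter on low counts, under the replicate block or without any 1 of the libraries other than Pcif1fl/fl replicate 3. The summed tropomyosin level was 1342 to 1473 TPM in the control and 1428 to 1486 TPM in the CKO libraries, which overlapped.

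Among the regulatory light chains, Myl9 took 85.7% ± 0.648 in the control and 81.5% ± 0.505 in the CKO libraries, and the share of its non-muscle relative Myl12a was 13.5% ± 0.817 and 17.8% ± 0.667. Here the summed level also differed, at 559 to 635 TPM against 462 to 471 TPM. The level of Myl12a itself overlapped between genotypes, with a log2 fold change of 0.073 at an adjusted p of 0.708 (edgeR). Cnn1 took 5.94% ± 0.201 and 4.10% ± 0.402 of the calponins, of which Cnn2 was the most abundant. Acta2 kept 17.3% ± 0.384 and 17.2% ± 0.702 of the actins, and Actg2 took 2.87% ± 0.536 and 2.10% ± 0.0929. Myh11 was only 0.502% ± 0.0778 and 0.480% ± 0.0197 of the myosin heavy chains, which were mostly the non-muscle Myh9, with 91.2% and 93.7%. The share of Myh10, a further non-muscle gene, was 8.28% ± 0.451 and 5.77% ± 0.184. All shares are means with SD of 3 libraries, and the smallest exact permutation p of 0.1 was reached by Tpm1, Tpm4, Myl9, Myl12a, Cnn1, Actg2, Actg1, Myh9 and Myh10. Relatives within a family share sequence, and the counting of shared reads is not known.

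**Figure D3:**
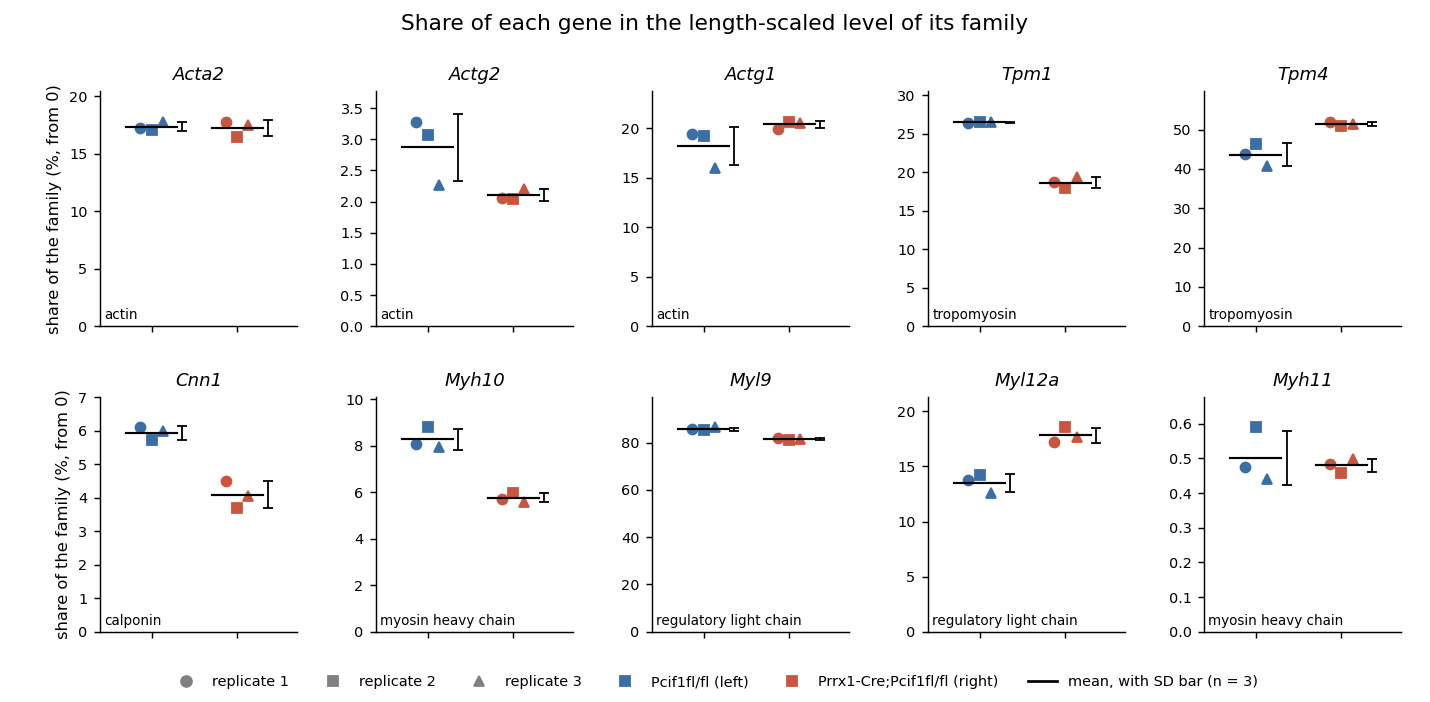
Share of 10 genes in the summed length-scaled level of their family, in percent from 0 on the vertical axis, for the 6 libraries, with the mean and SD (n = 3). Tpm1 goes from 26.4% to 18.6% of the tropomyosins as Tpm4 goes from 43.6% to 51.4%, whereas Acta2 stays at 17.3% and 17.2% of the actins.

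Other genes of the smooth muscle cytoskeleton were read from a list of 25, of which 23 passed the filter on low counts. Of these, 5 were lower and 0 higher, with 1 higher gene at an unadjusted p under 0.05 or with DESeq2, and the median log2 fold change was -0.11. Without Pcif1fl/fl replicate 3, 6 were lower and 5 higher. Synpo2, which encodes an actin-bundling Z-disc and stress-fibre protein, was at 26.5, 25.7 and 34.9 CPM in the control and 9.003, 9.41 and 8.85 CPM in the CKO libraries, a log2 fold change of -1.67 (SE 0.15) at an adjusted p of 0.000404 (edgeR). The LIM protein gene Fhl1, which is X-linked, went from 170 ± 15.8 to 87.9 ± 7.25 CPM (SD, n = 3) and fell by 0.95. The intermediate filament gene Synm, encoding synemin, went from 10.9 ± 0.844 to 4.79 ± 0.0669 CPM and fell by 1.18 on the log2 scale. Palld, encoding the actin-bundling palladin, also fell, with a log2 fold change of -1.01. Synpo2, Fhl1, Synm and Palld passed in all 13 alternatives. The other 18 tested genes did not pass. They include the smooth muscle genes Smtn, Csrp1 and Cald1, with log2 fold changes of -0.020, 0.011 and -0.22, as well as the general adhesion genes Vcl and Actn1, with 0.020 and 0.092. Palld and these 5 genes were named after their values were seen.

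The regulators of the group did not pass the test in either direction. Of the 9 tested genes of SRF and its partners, 0 were lower and 0 higher with edgeR. Srf was at 45.7, 41.5 and 44.7 CPM in the control and 47.0, 43.1 and 48.7 CPM in the CKO libraries, with a log2 fold change of 0.075. Myocd, encoding myocardin, the coactivator of smooth and heart muscle, was at 2.31 to 3.94 and 3.53 to 4.37 CPM and overlapped. Its relatives Mrtfa and Mrtfb had log2 fold changes of -0.29 and -0.13, and of -0.12 and 0.15 without Pcif1fl/fl replicate 3. Klf4, whose product represses smooth muscle genes, was at 69.8 to 78.5 CPM in the control and 90.3 to 92.8 CPM in the CKO libraries, with a log2 fold change of 0.31 and an adjusted p of 0.0723 (edgeR). It passed with DESeq2 (adjusted p of 0.0435) and without Pcif1fl/fl replicate 3 (adjusted p of 0.00123, edgeR), and its adjusted p was 0.0692 to 0.256 in the other 11 alternatives. The log2 fold changes of Elk1, Elk4, Tead1 and Gata6 were -0.10, 0.0058, -0.19 and -0.72. Without Pcif1fl/fl replicate 3 they were 0.026, -0.015, 0.047 and -0.64. At an unadjusted p under 0.05 stood Klf4 and Gata6.

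The other genes that set the phosphorylation of the light chain, such as those of the myosin phosphatase and calmodulin, formed a list of 21, of which 0 were lower and 0 higher with edgeR. Their median log2 fold change was 0.030. At an unadjusted p under 0.05 there were 2 lower and 2 higher. With DESeq2, 1 passed as higher, and without Pcif1fl/fl replicate 3, 2 passed as lower and 4 as higher. In that last fit 10.4% of all genes were lower and 11.1% higher. In 2 genes of the list every CKO library was below every control library, and in 5 every CKO library was above, against 15.7% and 15% of all genes tested. The 2 lower ones were Ppp1r14a, encoding an inhibitor of the myosin phosphatase and counted at no more than 1.14 CPM in any library, and the kinase gene Prkg1, with log2 fold changes of -1.40 and -0.39 (adjusted p of 0.117 and 0.0821, edgeR). The 5 higher ones include Ppp1r14b, a further inhibitor gene, and Ppp1r12b, a phosphatase subunit gene, with log2 fold changes of 0.52 and 0.29 (adjusted p of 0.315 and 0.166, edgeR). The lowest adjusted p among the higher genes was 0.0941. The genes named here were chosen after their values were seen.

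Of a list of 10 genes that respond to the SRF partners MRTF and to YAP, 4 were higher and 0 lower, where 2.88% of all genes were higher. The other 6 did not pass. Amotl2, Amotl1 and Ajuba had log2 fold changes of -0.16, 0.032 and 0.15, and Thbs1, Ccn1 and Lats2 had 0.33, 0.29 and 0.16. In 7 of the 10 every CKO library was above every control library, and in 1 every one was below, against 15% and 15.7% of all genes tested. DESeq2 gave 5 higher and 0 lower genes, and an unadjusted p under 0.05 gave 6 higher and 0 lower. The median log2 fold change was 0.31. Ankrd1, encoding a stretch-responsive ankyrin repeat protein, was at 11.4, 12.2 and 15.5 CPM in the control and 34.5, 35.1 and 32.9 CPM in the CKO libraries. It rose by 1.39 on the log2 scale (SE 0.14) at an adjusted p of 0.000712 (edgeR). The receptor kinase gene Axl rose from 160 ± 9.92 to 279 ± 15.1 CPM (SD, n = 3). Its log2 fold change was 0.80. Ccn2, encoding connective tissue growth factor, rose by 0.57. Ccn2 and the 6 genes that did not pass were named after their values were seen. Ankrd1, Axl and Ccn2 passed in all 13 alternatives. Among the 15 tested non-muscle counterparts of the members, 1 was lower, Tmod2 with a log2 fold change of -1.36 from a mean of 2.67 CPM, and 1 was higher, Tpm4. Without Pcif1fl/fl replicate 3, the MRTF and YAP list had 1 lower and 6 higher genes, and the non-muscle counterparts 2 and 3. Tmod2 passed in 9 of the 13 alternatives, with adjusted p-values of 0.0595 to 0.0837 without Pcif1fl/fl replicate 2 or any 1 of the CKO libraries.

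**Figure D4:**
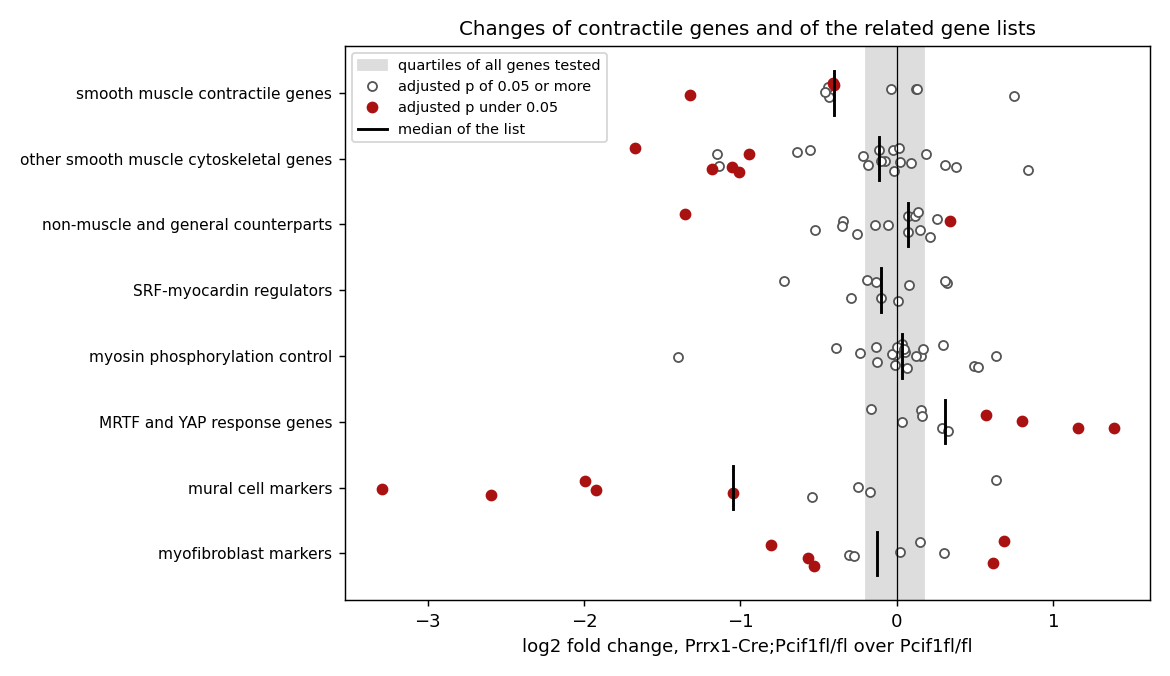
Log2 fold change, Prrx1-Cre;Pcif1fl/fl over Pcif1fl/fl, of the tested genes of 8 lists, with 1 point per gene, filled where the adjusted p was under 0.05, a line at each list's median and a band for the quartiles of all genes tested. The medians are -0.40 for the contractile genes, 0.31 for the MRTF and YAP response genes and -1.05 for the mural cell markers.

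Mural cells also hold contractile genes. Of 12 mural cell markers, 9 passed the filter, 5 were lower and 0 higher (1 higher at an unadjusted p under 0.05 or with DESeq2), with a median log2 fold change of -1.05. Without Pcif1fl/fl replicate 3, 7 were lower and 1 higher. Of the defining markers, Abcc9, a potassium channel subunit of pericytes, was at 4.28, 3.75 and 4.27 CPM in the control and 0.405, 0.597 and 0.241 CPM in the CKO libraries, a log2 fold change of -3.29 (SE 0.30) at an adjusted p of 0.000451 (edgeR). Abcc9, Rgs5 and Steap4 passed in all 13 alternatives. Rgs5, a regulator of G protein signaling, went from 13.1 ± 3.18 to 3.30 ± 0.0912 CPM and fell by 1.99, and Steap4, a metalloreductase gene, went from 4.10 ± 0.288 to 1.08 ± 0.205 CPM and fell by 1.92. The defining markers Kcnj8 and Higd1b were at 0.0481 to 0.574 CPM and at 0 to 0.0481 CPM and were not tested. Cspg4, Pdgfrb and Notch3 of this list did not pass, with log2 fold changes of 0.64, -0.25 and -0.17 (adjusted p of 0.0541, 0.164 and 0.373, edgeR), and were named after their values were seen. The summed level of the list was 326 to 357 CPM in the control and 266 to 289 CPM in the CKO libraries, but most of it was Pdgfrb, at 233 to 263 and 199 to 224 CPM, which other mesenchymal cells express too. The part of mural cells in the lower Mylk, Tpm1 and Myl9 was not tested.

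Striated muscle markers were near the lower end of detection. Of these, 13 of 19 were in the table, 5 passed the filter, 0 were lower and 0 higher with edgeR or DESeq2 (1 lower at an unadjusted p under 0.05), and their summed level was 4.45 to 5.16 CPM in the control and 3.98 to 6.12 CPM in the CKO libraries. The defining gene Myog was at 0 in 5 libraries and at 0.0962 CPM in the sixth. Myofibroblasts, the contractile fibroblasts of wound tissue, share Acta2 with smooth muscle, and their 10 other markers were split. Fap, Itga11 and Cdh11 were lower, with log2 fold changes of -0.81, -0.53 and -0.57, while Postn and Col1a1 were higher, with 0.69 and 0.61. Fn1 had 0.30 and did not pass. Dropping Pcif1fl/fl replicate 3 left 3 lower and 3 higher myofibroblast markers, and 0 and 0 of striated muscle. Fap passed in all 13 alternatives, and the other 4 missed the threshold in 3 or 4 of the fits without 1 library, with adjusted p-values of 0.0509 to 0.175 there.

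The remaining lists describe the rest of the culture. Of 11 mesenchymal markers, 4 were lower and 3 higher, or 5 and 6 without Pcif1fl/fl replicate 3. Lepr, the receptor that marks reticular stromal cells of the marrow, went from 80.1 ± 18.9 to 12.2 ± 0.737 CPM, a log2 fold change of -2.72 (adjusted p = 0.000131, edgeR), Eng, Vcam1 and Pdgfra fell by 1.11, 0.52 and 0.42, and Thy1, Cd44 and Ly6a rose by 1.52, 0.71 and 1.12. Lepr and Eng passed in all 13 alternatives, whereas Vcam1, Pdgfra, Thy1, Cd44 and Ly6a missed the threshold in 2 to 5 of them, with adjusted p-values of 0.0509 to 0.155. Of 9 tested adipocyte markers, 6 were lower and 0 higher (1 higher with DESeq2 or at an unadjusted p under 0.05), among them Adipoq, Plin4 and Pparg, with log2 fold changes of -5.80, -1.90 and -1.57. Plin1 and Cidec, of the lipid droplet coat, were at 2.17 to 4.12 and 1.18 to 1.87 CPM in the control libraries, and in the CKO libraries Plin1 was at 0 and Cidec at 0 to 0.0498 CPM. Lower and higher adipocyte markers numbered 7 and 2 without Pcif1fl/fl replicate 3. Of 13 macrophage markers, 0 were lower and 1, Fcgr1, was higher with edgeR. With DESeq2, and also with no filter on low counts, 3 were higher, and 1 was lower and 4 higher without Pcif1fl/fl replicate 3. At an unadjusted p under 0.05 stood 1 lower and 3 higher macrophage markers. Of 11 endothelial markers, 0 passed in either direction with edgeR. With DESeq2, with total-count scaling, with no filter on low counts and without Pcif1fl/fl replicate 2, 1 was lower and 0 higher. Without Pcif1fl/fl replicate 3, and also at an unadjusted p under 0.05, 1 was lower and 2 were higher. Pecam1, Cdh5 and Kdr of the endothelial list were at 2.14 to 16.1 CPM over all libraries.

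Finally, the genes whose levels across the 6 libraries were most like those of Acta2 were sought among the 9242 genes with a mean of at least 10 CPM. They were Ephx1, Agpat1, Cdr2l, Cwc15 and Ift22, whose profiles on the log2 scale, each centred on its own mean, differed from that of Acta2 by a root mean square of 0.024 to 0.035. Of the other members at that level, Tpm2 came nearest to Acta2, at rank 1224 with 0.12, and Mylk was the farthest, at rank 9063 with 0.64. Tagln and Myh11 were below that level and were not compared. The likeness is a description over 6 libraries of 2 groups.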

How the data were processed

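Poly(A) libraries were prepared by the authors with a NEBNext Ultra kit, reads were aligned to mm10 with HISAT2, and counts of reads per gene were deposited by the authors without normalization. How reads were assigned to genes, by which tool and annotation and with or without strand, is not given in the sources used here. The submitters' processing notes also name FastQC and DESeq2. Of 20163 rows, 92 repeated an Ensembl ID with the same counts, so 20071 IDs were used. The sample titles gave the groups and replicate numbers.

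Genotypes were compared with edgeR 4.0.16 under R 4.3.3 (filterByExpr filter, TMM factors, glmQLFit, glmQLFTest, no covariate) over 13733 genes with Benjamini-Hochberg adjustment, at a threshold of 0.05. Standard errors (SE) were |log2 fold change| over the root of the F statistic. The fold threshold was 1 on the log2 scale. CPM were scaled by TMM factors, and TPM used the exonic bases of GENCODE M21, which held 20059 IDs and gave coordinates and overlaps on GRCm38. Permutation tests used scipy 1.17.1 under Python 3.11.15. Promoter windows were from RefSeq (GRCm38.p6). On simulated counts, edgeR found 77.0% of 196 genes changed by a log2 of 1 among 13612 tested, with 12 false calls.

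Alternatives were DESeq2 1.42.0, limma-voom (limma 3.58.1), RLE and total-count scaling, no filter, a mean of at least 10 counts, a replicate block, and each library left out. The members and the 12 other lists (other smooth muscle cytoskeletal genes, non-muscle counterparts, SRF-myocardin regulators, myosin phosphorylation control, MRTF and YAP response genes, and mural, striated muscle, myofibroblast, mesenchymal, macrophage, endothelial and adipocyte markers) were chosen with earlier results of these data known. Named were all members, up to 3 genes per direction of each list with the smallest p among those that passed, all SRF-myocardin regulators, defining cell markers, and the 5 genes nearest to Acta2. Standard errors include counting error but cannot tell PCR copies apart from independent molecules. Some genes of these lists enter the counts but are not reported here by name.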

Additional observations from a re-analysis of the deposited data

How the results depend on the processing

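Of the members, Mylk passed in all 13 alternatives to the edgeR test, and all 10 kept their direction except Acta2, whose log2 fold change lay between -0.14 and 0.085 with 1 library left out and was above 0 without Pcif1fl/fl replicate 3. The number of lower members was 3 with edgeR, 6 with DESeq2, 5 with total-count scaling and 1 with the replicate block, beside 4.51%, 4.14%, 5.11% and 3.66% of all genes lower in these fits. The DESeq2 share is of 20070 genes, without the filter on low counts, and the others are of 13733. In counts, 830 genes were lower with DESeq2 and 620 with edgeR. Under the block Mylk passed, and Tpm1 and Myl9 had adjusted p-values of 0.0798 and 0.0778. Leaving out 1 library gave 1 to 6 lower members, 6 of them when Pcif1fl/fl replicate 3 was dropped and 1 when Pcif1fl/fl replicate 1 or any CKO library was dropped. The cause of these moves was not tested, except that fits without a library hold fewer samples. No member was higher in any alternative, and 1 was down-regulated past the fold threshold in all of them.

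Over all genes, leaving out 1 library gave 324 to 1447 lower and 148 to 1544 higher genes, against 620 and 396 with every library, and the highest counts came without Pcif1fl/fl replicate 3. Other smooth muscle cytoskeletal genes had 1 higher gene with DESeq2 and with no filter, and 0 to 5 with 1 library left out. The non-muscle counterparts had 2 lower genes with DESeq2 and with total-count scaling, 0 higher with no filter and with the replicate block, and, with 1 library left out, 0 to 2 lower and 0 to 3 higher. The SRF-myocardin regulators had 1 higher gene with DESeq2 and 0 to 1 with 1 library left out. The list of myosin phosphorylation control had 1 higher gene with DESeq2, and 0 to 2 lower and 0 to 4 higher with 1 library left out. The MRTF and YAP response genes had 0 to 1 lower genes with 1 library left out, and the mural markers 1 higher with DESeq2 and 0 to 1 with 1 library left out.

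No pairing by replicate number was seen: the correlations of the deviations of same-numbered libraries were 0.055, -0.045 and -0.013, and those of other pairs -0.041 to 0.049. With only 3 libraries per genotype, each set against its group mean, these values cannot exclude a pairing.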
